A study of Bos taurus with 28 samples.

Results

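Muscle expression was followed in the control steers of a feeding study, from the last day of ad libitum concentrate feeding to day 131. The comparison holds 12 of the 24 samples of the series, namely the 6 control steers of its 12 steers on both days. The samples were chosen by their labels (control group, first and second biopsy), and the 2 days of a steer were matched by the steer number in the sample title. All animals were male crossbred Aberdeen Angus x Holstein Friesian cattle. Until day 99 concentrates were on offer to the control steers without limit, and each also received 7 kg of grass silage daily. At day 131 they had been on a mixed ration of 80% silage and 20% concentrate for 32 days. The sample descriptions still call this second control diet ad libitum, and the diet labels call it the mixed ration. No control steer stayed on the first feeding regime after day 99. The new ration, the 32 days of age and growth, and the second biopsy therefore cannot be told apart. The restricted steers, which are used here only for comparison, had been fed silage without limit and 0.5 kg of concentrate daily until day 99 and then the same mixed ration. The labels name the tissue as muscle and do not say which muscle.

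In cattle, rumen microbes turn the fibre of silage largely into acetate. The starch of concentrates raises the proportion of propionate, from which the liver makes glucose. A diet rich in concentrate therefore tends to raise insulin, and with it fat deposition and protein accretion in muscle. Muscle responds to feed supply through the enzymes of fuel use, the growth hormone and IGF axis and the pathways of protein breakdown. The files give genes by Ensembl identifier alone, and none could be paired with a symbol from the reference table used here (0 of 24616). Gene lists of these pathways and marker genes for the tissue label were therefore not run, and genes are described by abundance, by steer and, for 4 of them, by identifier.

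Values are raw read counts per gene, summed over the technical libraries of a sample. Control totals ran from 3342314 (steer 6 at day 99) to 16115476 counts (steer 2 at day 131). In the control samples, 1 count was worth 0.0571 to 0.334 CPM, the count relative to library size after scaling by the trimmed mean of M-values (TMM). Per steer, the total changed by -538361 ± 5725613 counts (SD of the 6 differences) from day 99 to day 131. The genes with at least 1 count changed by -414.3 ± 1969. The share of counts in the 10 most abundant genes of each sample changed by 0.0606 ± 2.05 percentage points. None of these differences, nor that of the TMM factor (-0.0769 ± 0.423), was larger than its spread between steers. Exact two-sided sign-flip permutation tests over the 6 steers gave p = 0.656 to 0.969 and an adjusted p of 0.969 for each of the 4 measures (the smallest p this design allows is 0.0313).

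2 control samples stood apart from the other 10. Their TMM factors were 1.69 (steer 3, day 99) and 1.59 (steer 5, day 131), against 0.824 to 1.13 in the other 10. In a principal component analysis of log2 CPM over the 12 control samples, 58.0% of the variance lay on the first component and 10.8% on the second. The same 2 samples had its highest scores, 98.0 and 91.9, and the others lay between -81.5 and 43.1. They were close to each other in rank order (Spearman rho 0.977 across genes), although they came from different steers, days and sequencing runs. Steer 3 at day 99 had a rho of 0.772 with its own second sample, the lowest of the 6 steers, and the other 5 had 0.933 to 0.981. This component set genes of low abundance against genes of high abundance. Loadings were positive in 75.9% of the 2258 least abundant genes and in 19.2% of the 2258 most abundant ones. Results that rest on these samples are given with and without them. In bulk tissue, fewer cells of a type and less RNA per cell cannot be told apart, and RNA quality was not measured in the files.

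**Figure D1:**
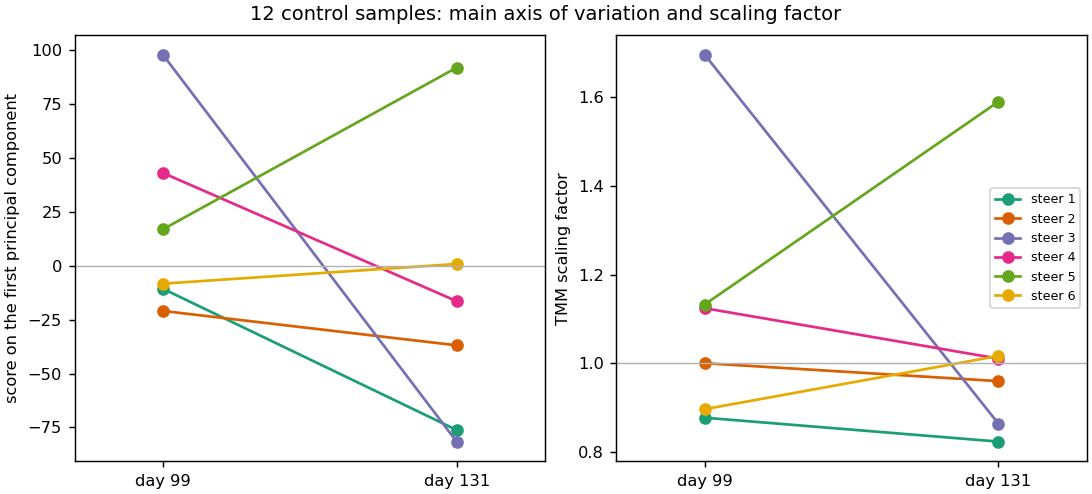
Scores of the 12 control samples on the first principal component (left) and their TMM scaling factors (right) at day 99 and day 131, with a line for each steer. Steer 3 went from 98.0 to -81.5 on the component and steer 5 from 16.9 to 91.9, and both measures put the same 2 samples on top.

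Whether the change of ration and time altered muscle expression in control steers was tested over 11288 genes. No gene differed between the days at an adjusted p under 0.05 by edgeR's quasi-likelihood test (0 of 11288, 0%, smallest adjusted p = 0.722). This fit had the group as its only term and left out the pairing of the days within steers. At an unadjusted p under 0.05 there were 439 genes (3.89%), of which 212 (1.88%) were higher at day 131 and 227 (2.01%) lower. DESeq2 also called 0 genes (750 at an unadjusted p under 0.05) and so did limma voom (459). The split between directions moved with the method, from 80 higher and 379 lower by limma voom to 567 higher and 183 lower by DESeq2. With median-ratio size factors in edgeR it was 468 higher and 148 lower, and with the steer as a block 85 higher and 336 lower. No direction is therefore given for the comparison as a whole.

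The number of genes at an unadjusted p under 0.05 turned on single samples. It was 3415 without steer 5 at day 131 (1647 higher, 1768 lower), where the smallest adjusted p was 0.0713, and 423 of the 439 genes were among them. It was 201 without steer 3 at day 99, 269 without steer 4 at day 99, 153 without steer 1 at day 131 and 176 without steer 3 at day 131. Leaving out both samples that stood apart gave 1458, with 883 higher and 575 lower and a smallest adjusted p of 0.316. None of these fits called a gene after adjustment.

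**Figure D2:**
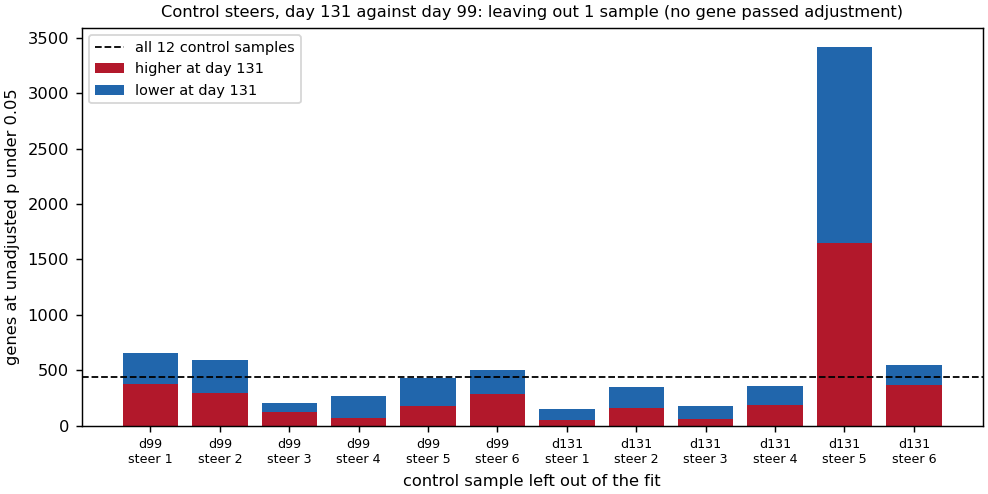
Number of genes at an unadjusted p under 0.05 between day 131 and day 99 in control steers (edgeR) when the named control sample is left out, divided by direction. The dashed line marks the 439 genes found with all 12 control samples. Without steer 5 at day 131 the number was 3415, and without any other sample it was between 153 and 653.

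An absence of calls does not show that expression stayed the same. Fold changes across all genes had a median of -0.10 on the log2 scale and quartiles of -0.38 and 0.24. The fitted difference was over 2-fold in 128 genes (41 above 1 and 87 below -1 on the log2 scale). This number was 1293 without steer 5 at day 131, 1548 without steer 5 on both days, 348 without both samples that stood apart and 60 with a surrogate variable. The median standard error was 0.34, so that the 95% interval of a typical gene reached 0.70 to either side. That interval lay wholly within 2-fold (-1 to 1 on the log2 scale) for 5020 genes (44.5%), for 3256 without steer 5 on both days and for 9291 with a surrogate variable, where the median standard error was 0.24. With all samples and no surrogate variable it did so for 59.8% of the 6234 genes at or above 10 CPM on average and for 19.4% of the 3449 genes under 5 CPM. For the other genes a change of 2-fold in at least 1 direction is within what these samples allow.

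The 2 genes named as higher were, by the rule in the methods, those with the smallest unadjusted p among those above an abundance limit of 1 CPM that were higher at day 131 in at least 5 of 6 steers. They were chosen by these values, so the values are a description. ENSBTAG00000019743 had a lowest, median and highest value of 1.71, 3.40 and 4.16 CPM at day 99, and of 2.85, 8.72 and 11.0 CPM at day 131. All steers except steer 5 were at 8.05 CPM or more on the second day, above every day 99 sample. Steer 5 went from 3.79 to 2.85 CPM, and the days overlap through this sample alone. Group means were 3.097 ± 1.09 and 8.14 ± 2.79 CPM (SD, n = 6 each), a log2 fold change of 1.39 ± 0.33 (SE, 2.62-fold, edgeR unadjusted p = 0.000204, adjusted p = 0.722). Restricted steers had a median of 4.55 CPM at day 99 and 9.11 CPM at day 131 and were higher in 6 of 6, by 1.03 ± 0.32 on the log2 scale (SE, adjusted p = 0.141 in edgeR). The difference between the diets in this change was -0.36 ± 0.45 (SE, edgeR interaction, unadjusted p = 0.437).

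ENSBTAG00000008807 had a lowest, median and highest value of 8.11, 16.1 and 18.4 CPM at day 99 and of 13.8, 31.8 and 42.4 CPM at day 131. It was higher at day 131 in 6 of 6 control steers. In 5 of them the within-steer change was 0.77 to 1.64 on the log2 scale, and in steer 5 it was 0.01, from 13.7 to 13.8 CPM. The day 131 samples other than that of steer 5 were at 25.7 CPM or more. Group means were 15.1 ± 4.01 and 30.0 ± 9.67 CPM (SD, n = 6 each), and the log2 fold change was 1.00 ± 0.27 (SE, 1.99-fold, edgeR unadjusted p = 0.000842, adjusted p = 0.722). In restricted steers the samples of the 2 days did not overlap (7.91 to 18.3 against 31.4 to 46.5 CPM). There the gene passed the test, with a fold change of 1.498 ± 0.27 on the log2 scale (SE, adjusted p = 0.00865 in edgeR). It was among 43 of 11288 genes called in restricted steers (31 higher, 12 lower), with 2116 at an unadjusted p under 0.05. Genes without overlap were not counted in restricted steers. For ENSBTAG00000008807 the interaction of diet and day was 0.50 ± 0.37 (SE, edgeR unadjusted p = 0.19), so a difference between the diets was not shown.

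The 2 genes named as lower were chosen in the same way. ENSBTAG00000017661 had a lowest, median and highest value of 12.6, 22.3 and 50.1 CPM at day 99 and of 5.05, 8.78 and 14.0 CPM at day 131. The highest day 131 sample was that of steer 4, which went from 13.3 to 14.0 CPM, and the other 5 steers were lower on the second day. Steers 1, 2, 5 and 6 differed by -1.53 to -2.37 on the log2 scale, and steer 3 by -0.38. Group means were 25.1 ± 14.6 and 8.88 ± 3.02 CPM (SD, n = 6 each), a log2 fold change of -1.49 ± 0.35 (SE, 2.82-fold, edgeR unadjusted p = 0.000206, adjusted p = 0.722). In restricted steers it was lower in 4 of 6, with a difference of -0.23 ± 0.34 on the log2 scale (SE, adjusted p = 0.691 in edgeR). The interaction was 1.27 ± 0.49 (SE, edgeR unadjusted p = 0.015, adjusted p = 1.00), and it uses the values by which the gene was chosen.

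ENSBTAG00000020657 had a lowest, median and highest value of 12.7, 15.6 and 23.7 CPM at day 99 and of 5.16, 7.87 and 13.2 CPM at day 131. Again steer 5 departed from the rest, at 12.7 and then 13.2 CPM, and without it the days did not overlap. In the other 5 steers the within-steer difference was -0.79 to -1.35 on the log2 scale. Group means were 16.9 ± 4.62 and 8.67 ± 2.85 CPM (SD, n = 6 each), and the log2 fold change was -0.95 ± 0.26 (SE, 1.93-fold, edgeR unadjusted p = 0.00113, adjusted p = 0.722). Restricted steers had medians of 9.61 and 11.4 CPM and were higher at day 131 in 5 of 6, with a difference of 0.14 ± 0.26 on the log2 scale (SE, adjusted p = 0.744 in edgeR). The interaction was 1.09 ± 0.37 (SE, edgeR unadjusted p = 0.00626, adjusted p = 1.00), again on values that chose the gene. Within each of the 4 sequencing runs, which hold 1 or 2 control samples of each day, all 4 named genes kept their direction. The within-run differences were 0.64 to 1.91, 0.20 to 1.85, -0.85 to -1.79 and -0.56 to -1.49 on the log2 scale, in the order in which the genes are described. They use the values that chose the genes, and within a run the 2 days come from different steers. They are a description, and an effect of run on these genes was not tested by them.

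**Figure D3:**
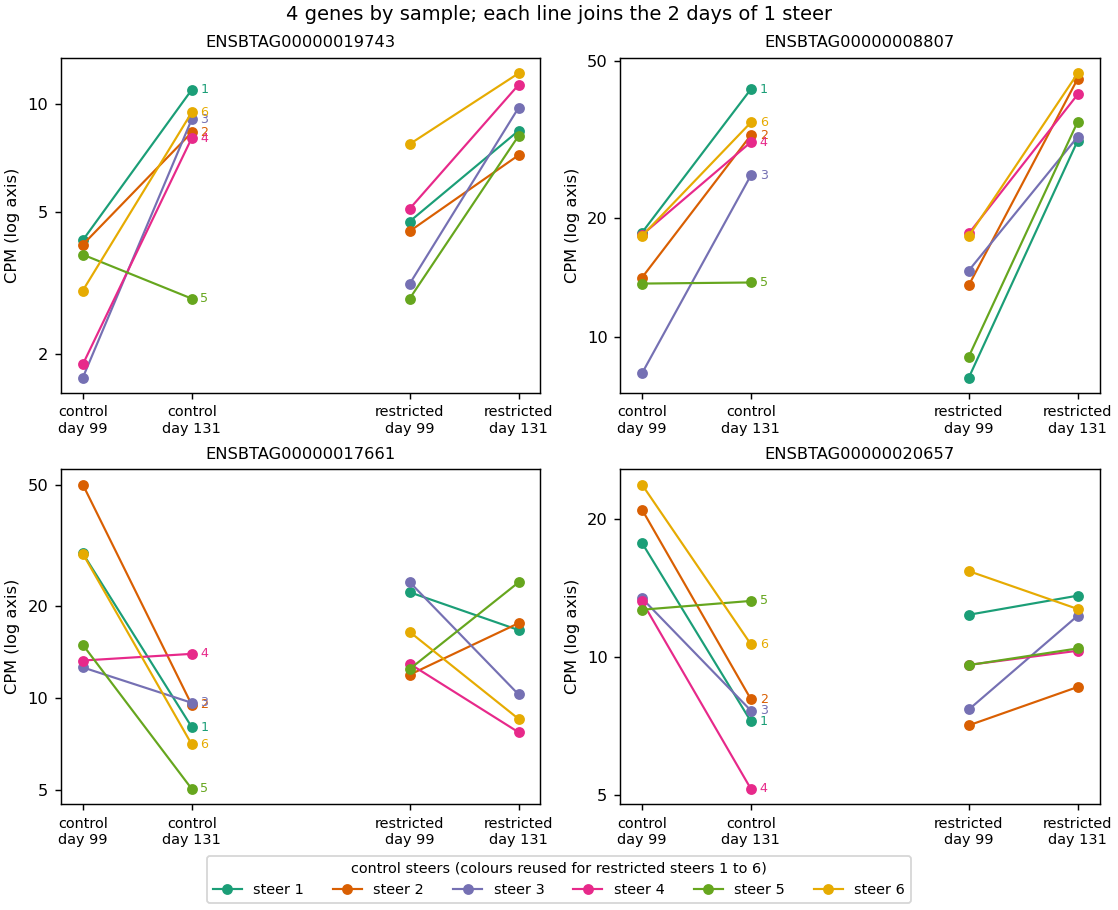
CPM (log axis) of the 4 named genes in each sample of the control and restricted steers, with a line for the 2 days of each steer. In control steers, steer 5 is the exception for 3 of the genes and steer 4 for ENSBTAG00000017661. ENSBTAG00000008807 is higher at day 131 in 6 of 6 steers of each diet.

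The change between days was graded by gene abundance, and the grading differed from steer to steer. With genes sorted by mean log2 CPM into 5 bins of 2257 or 2258 genes, the median log2 fold change was -0.29, -0.27, -0.16, 0.03 and 0.19 from the lowest to the highest bin. Of the genes at an unadjusted p under 0.05, 16 were higher and 49 lower in the lowest bin, and 49 were higher and 19 lower in the highest. In steer 3 the within-steer median was -1.44 in the lowest bin and 1.42 in the highest. Steers 1, 2 and 4 had the same order with smaller values, from -0.44, -0.07 and -0.40 in the lowest bin to 0.24, 0.07 and 0.33 in the highest. Steer 5 had the opposite order, 0.45 against -0.67, and steer 6 had 0.11 against -0.08. Without steer 3 on both days, the lowest and the highest bin had the same median of 0.07. With all samples and a surrogate variable these medians were -0.09 and -0.07. In the paired fit without steers 3 and 5 they were -0.23 and 0.15. Without steer 5 on both days it ran from -0.62 to 0.36, and without both samples that stood apart from -0.34 to 0.24. From day 99 to day 131 the TMM factor differed by -0.830 in steer 3 and by 0.457 in steer 5. The days of each steer were also in different sequencing runs. The parts of library composition and of run in the gradient were not tested.

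**Figure D4:**
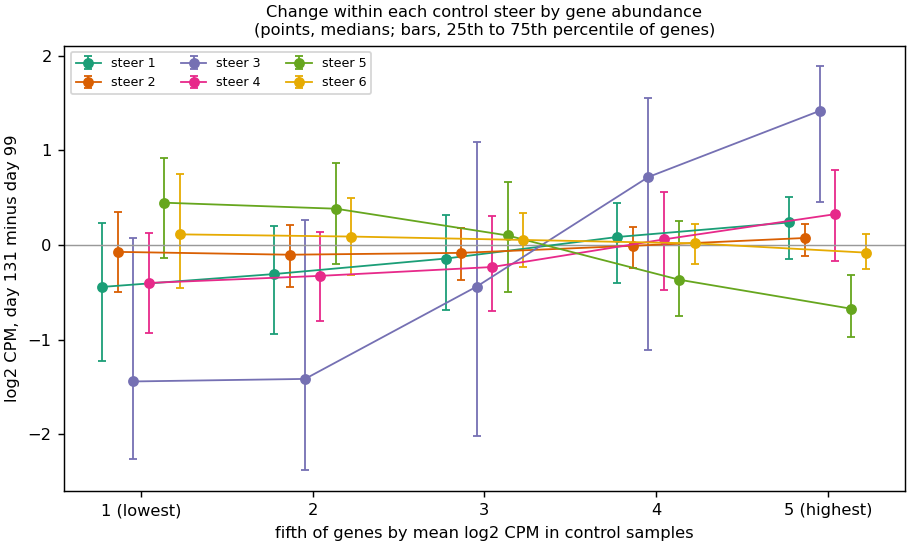
Difference in log2 CPM between day 131 and day 99 within each control steer, for 5 bins of genes by mean abundance. Points are medians over genes and bars run from the 25th to the 75th percentile. Steer 3 runs from -1.44 to 1.42 and steer 5 from 0.45 to -0.67.

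Steers also differed in the size of the difference between their 2 biopsies. No control steer had both days in the same sequencing run. Each within-steer change given here is therefore also a difference between runs, and the 2 cannot be told apart. The standard deviation of the within-steer change across genes was 1.73 on the log2 scale in steer 3, 0.866 in steer 1, 0.830 in steer 5, 0.797 in steer 4, 0.633 in steer 6 and 0.484 in steer 2. Between the 2 biopsies, 71.4% of genes differed over 2-fold in steer 3, 4.69% in steer 2 and 9.08% in steer 6. The changes of steers 1, 3 and 4 resembled one another, with correlations across genes of 0.457 to 0.630. Steer 5 correlated negatively with steers 1 to 4, from -0.241 with steer 2 to -0.824 with steer 3. Steer 6 resembled none of the others, with correlations between -0.111 and 0.0684. Each SD and share comes from the 2 samples of a steer and each correlation from 4 samples, and genes share abundance and library composition, so they are a description of these biopsies.

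Few genes differed in the same direction in every steer. Within the pairs, 44 genes (0.390%) were higher at day 131 in 6 of 6 steers and 180 (1.59%) were lower. With random and independent signs, a share of 0.0313 of genes would have all 6 alike, counting both directions. The changes correlated between steers from -0.824 to 0.630, so the signs were not independent. This share is therefore not a fair reference, and whether the shares found are an excess was not tested. The balance between higher and lower depended on scaling, with 73 higher and 96 lower under median-ratio factors and 128 higher and 83 lower with library totals alone. Leaving out the pair of steer 5 gave 1158 genes higher and 1090 lower in 5 of 5 steers, out of 11288. Leaving out the pairs of steers 3 and 5 gave 1244 higher and 1344 lower in 4 of 4. These omissions were chosen after seeing the data, and the changes of steer 5 ran against those of steers 1 to 4. The larger numbers follow in part from these choices and from the smaller number of steers. The values of the 2 days did not overlap in 1 gene that was higher (0.00886%) and 6 that were lower (0.0532%).

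The most abundant transcripts differed little in their share of the counts. As a fixed set, the 10 genes with the highest mean over the control samples held 13.4% ± 2.61 of the counts at day 99. At day 131 they held 13.1% ± 1.33 (SD, n = 6 each). Their log2 fold changes ran from -0.74 to 0.27, and 8 of 10 were above 0. Of the 1000 most abundant genes, 753 were higher at day 131, with a median of 0.23, and 18 had an unadjusted p under 0.05, against 439 of all 11288. That median was 0.07 without steer 3 on both days and -0.08 with a surrogate variable, so its sign is not stable. At the other end, 1246 genes had counts at day 99 and none at day 131, and 956 the reverse. These had at most 12 counts over the 6 samples of a day, and none was counted in 6 of 6 samples of one day and in none of the other, so an appearance or loss was not detected for a transcript counted in every sample of a day.

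The spread between control steers was somewhat larger at day 131. The median gene had an SD of 0.55 on the log2 scale at day 99 and 0.65 at day 131, and 67.0% of genes were more variable at day 131. Without the 2 samples that stood apart the medians were 0.43 and 0.47, and the share was 56.2%. These values are descriptions over genes, and a difference in spread was not tested.

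Restricted steers went from silage to the same mixed ration over the same days, and their samples are distinct from those of the control steers. Across 11288 genes the control and restricted log2 fold changes correlated with Pearson r = 0.641 and Spearman rho = 0.683, a description across genes that share abundance and runs. The SD of the fold changes across genes was 0.41 in control and 0.62 in restricted steers, and 128 and 1011 genes differed over 2-fold. The control number was 1293 without steer 5 at day 131 and 348 without both samples that stood apart, so the order of the diets by this number depended on the samples kept. Of the 212 genes higher in control steers at an unadjusted p under 0.05, 208 (98.1%) also lay above 0 in restricted steers, where 45.4% of all genes did. Their median log2 fold change was 0.73 in control and 0.67 in restricted steers. Of the 227 lower genes, 182 (80.2%) lay below 0 in restricted steers, where 54.6% of all genes did. Their medians were -0.85 and -0.45. Over all 11288 genes, 9128 (80.9%) had the same sign in both diets, so the share of the lower genes was near that of all genes. Without steer 3 on both days, the genes under 0.05 in that fit shared their sign in 78.0% (higher) and 68.5% (lower). With a surrogate variable these shares were 86.8% and 59.7%. Without both samples that stood apart they were 96.9% and 88.3%, and without steer 5 at day 131 they were 96.1% and 93.2%. In these fits, in this order, 43.8%, 52.0%, 42.4% and 43.8% of all genes lay above 0 in restricted steers. The share of all genes with the same sign was computed for the main fit only.

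The size of this correlation depended on which samples were kept. Without the 2 samples of steer 3 it was 0.177, and without its day 99 sample alone it was 0.418. It was 0.652 without both samples that stood apart, 0.539 in the paired fit without control steers 3 and 5 (added after seeing the data), and 0.212 with a surrogate variable. The difference between the diets was tested as the interaction of diet and day. EdgeR called 0 of 11288 genes (0%, smallest adjusted p = 0.224), with 283 (2.51%) at an unadjusted p under 0.05, limma voom called 0 (290) and DESeq2 called 2 (318). With both a steer block and 1 surrogate variable in the edgeR fit, 47 genes were called. With the surrogate variable alone it was 3. The test of a difference between the diets thus depended on the model.

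**Figure D5:**
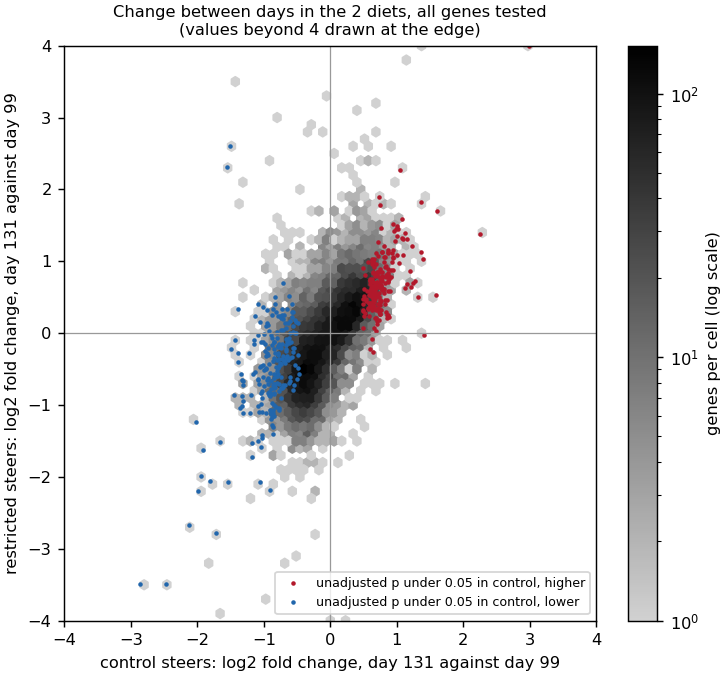
Log2 fold change from day 99 to day 131 in control steers (horizontal) and restricted steers (vertical) for 11288 genes, with shading for the number of genes. Coloured points are the 439 genes at an unadjusted p under 0.05 in control steers. Of the 212 higher ones, 208 lie above 0 in restricted steers, and of the 227 lower ones 182 lie below 0. Of all 11288 genes, 9128 (80.9%) have the same sign in both diets.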

How the data were processed

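Each deposited file gives unnormalized read counts by Ensembl gene for a library of poly(A)-selected RNA. CASAVA 1.4, Bowtie, SAMtools, HTSeq and genome build UMD3.1 are named, per the submitters' processing notes. The sources used here do not give other versions, strand setting or filters. Counts of overlapping genes, antisense genes and close paralogs are therefore uncertain. The control steers had 14 libraries. The 2 technical libraries of steer 1 at day 99 and of steer 2 at day 131 were summed and counted as 1 sample. Their chi-square per degree of freedom was 0.648 and 0.807, against 16.3 to 194.5 between steers. Independent counts would give about 1, and the reason for the lower values was not tested. With the second library alone for steer 2 at day 131, edgeR called 0 genes (457 at an unadjusted p under 0.05). Steer 1 at day 99 was not refitted in this way.

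The analysis used edgeR 4.0.16 under R 4.3.3. filterByExpr (minimum count 10) left 11288 genes. The 24 samples of 4 groups were fitted together with TMM scaling and robust dispersions, and p-values were adjusted over all genes by Benjamini-Hochberg (threshold 0.05). A prior count of 2 was added for log2 CPM. The main fit had the group as its only term and left out the pairing of the days. Its p-values therefore treat the 2 biopsies of a steer as independent samples, as do all fits without a replicate block. The labels give the animal of each sample, so steer numbers pair the days in the replicate block fits, the composition tests and the within-steer changes. Deviations from group means correlated across genes with r = 0.506, 0.52, -0.605, 0.351, -0.0382 and 0.161 in steers 1 to 6. Named genes are the 2 per direction with the smallest unadjusted p, mean CPM not below 1 and the same direction in at least 5 of 6 steers. Alternatives used DESeq2 1.42.0, limma 3.58.1 and sva 3.50.0. Sequencing runs were read from dates in the file names. Some of the fits were tested on simulated data. Those data held independent counts around a common mean per gene, without steer pairing, run effects or the abundance axis. They do not show how the fits behave where these are present. The comparison, the lists and the tests were chosen with earlier results of these data known.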

Additional observations from a re-analysis of the deposited data

Results flagged for a closer look

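Of 21 sets of 6 control values, 6 held a sample far from the other 5, where chance marks about 5% of sets. At day 99 steer 3 had a TMM factor of 1.69485, and its value of 8.11 CPM for ENSBTAG00000008807 was the lowest by a wide gap. At day 131 steer 5 had a TMM factor of 1.58899 and the lowest value of ENSBTAG00000019743, 2.85 CPM. The change between days had an SD of 1.73 across genes in steer 3, against 0.866 or less in the other 5 steers. The deepest sample, steer 2 at day 131, combines 2 technical libraries and held 16115476 counts. Of the values that stand apart at a single day, the 2 TMM factors and the 2 gene values come from steer 3 at day 99 and steer 5 at day 131. The total count comes from steer 2 at day 131. The sets share samples and scaling, so these flags are not independent of one another.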

How the results depend on the processing

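In 31 of 32 alternative fits, 0 genes were called between the days in control steers, the replicate block (paired) fit among them (0 calls, 421 genes under 0.05 before adjustment, lowest adjusted p = 0.705). The exception was the replicate block without steers 3 and 5, chosen after seeing the data, which called 1 gene (lower). The interaction called 2 genes with DESeq2, 3 with 1 surrogate variable and 47 with the surrogate variable and the replicate block (40 higher, 7 lower), and 0 to 1 when a control sample or steer was left out. The 4 named genes, which were chosen on these same samples, kept their direction in all 32 fits and passed the adjusted threshold in none. The smallest adjusted p was 0.0501, for ENSBTAG00000017661 with 1 surrogate variable. Genes at an unadjusted p under 0.05 numbered 95 (without steer 3 on both days) to 3415, 303 with run as a covariate and 161 with the replicate block on the 12 control samples alone. The differences in composition turned sign when a steer was left out. Total counts ran from -2186130 to 806229 (437362 without steer 4) and the TMM factor from -0.184 to 0.0738. The share of the 10 most abundant genes of each sample ran from -0.577 to 0.540 percentage points (-0.0757 without steer 2 and -0.166 without steer 4). Genes detected ran from -913.2 to 86.6. The cause of these changes was not tested. Counts, including genes detected, are limited by depth, which was lowest in steer 6 at day 99.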
